A study of Mus musculus with 147 samples.

Results

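Wells rich in mitochondrial transcripts were set against wells poor in them, separately in WT renin cells and in Reninnull cells. A well of the Fluidigm C1 chip holds one sorted cell. Of 147 wells, the 131 with at least 100000 counts were used, 48 of 51 WT wells and 83 of 96 Reninnull wells. A well was called mitochondria-rich when over 25% of its counts lay in the 13 genes named mt-, and mitochondria-poor otherwise, which gave 33 rich and 15 poor WT wells and 26 rich and 57 poor Reninnull wells. The wells of each class were chosen by their measured share of mt- counts, so the mt- levels of the classes are given as a description.

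The cells were YFP-positive cells sorted from dissociated kidney cortex of adult C57BL/6 mice. WT renin cells came from Ren1c+/+ Ren1c-YFP mice with an intact renin gene, and Reninnull cells from Ren1c-/- Ren1c-YFP mice (Ren1c-KO), which carry no functional renin gene. All groups share the Ren1c-YFP transgene, in which the 5′ regulatory region of Ren1c drives YFP, so any cell with an active or recently active renin promoter could enter the sort. Mice with the Ren1c-KO allele had received saline injections after birth, and wells were viewed under a microscope to pick those with a single viable cell. The methods trace the WT cells to 4 mice and 1 capture and the Reninnull cells to 12 mice and 4 captures, and the labels give the Reninnull cells 2 libraries, YFP1 and YFP2. No label ties a well to a mouse or capture, so each genotype was 1 sample, wells were not treated as replicates, and every difference below is a description of these wells with no test. The renin transcript bore the genotypes out: Ren1 held 17211056 counts in the poor and 1787429 in the rich WT wells, and 43 and 11 counts in the poor and rich Reninnull wells.

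Renin cells are specialised mural cells of the afferent arteriole that make and store renin, the enzyme that starts the renin-angiotensin cascade, and that share a contractile program with the smooth muscle cells next to them. Mitochondria keep their own small genome, which encodes core subunits of the respiratory chain, while all other mitochondrial proteins are encoded in the nucleus and imported. A high share of mitochondrial transcripts in a single-cell library is widely used as a sign of a damaged cell that has leaked cytoplasmic RNA, but cells with many mitochondria, such as those of the renal tubule, also have a high share.

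By their medians the classes were far apart in both genotypes. The mt- share ran from 29.2% to a median of 66.4% in rich WT wells, against a median of 6.85% in poor ones. In Reninnull wells the medians were 67.5% and 4.72%. The poor wells nearest the limit held 24.7% and 16.5% in WT and 20.1% and 18.9% in Reninnull, and the nearest rich wells 29.2% and 31.5%, and 25.6% and 26.8%. Only 3 rich WT wells and 6 rich Reninnull wells lay between 25% and 50%. Depth went with the class. A poor WT well had a median of 11209911 counts and a rich one 1263593, and 14 of the 15 poor WT wells were deeper than every rich WT well, so that class and depth cannot be told apart there. In Reninnull wells the medians were 6709916 and 1058983, and the ranges overlapped, from 151022 to 14505243 in poor wells and from 116059 to 8860613 in rich ones. The 16 wells under the minimum held 3628 to 67227 counts, and 11 of them were over 25% mt-.

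**Figure D1:**
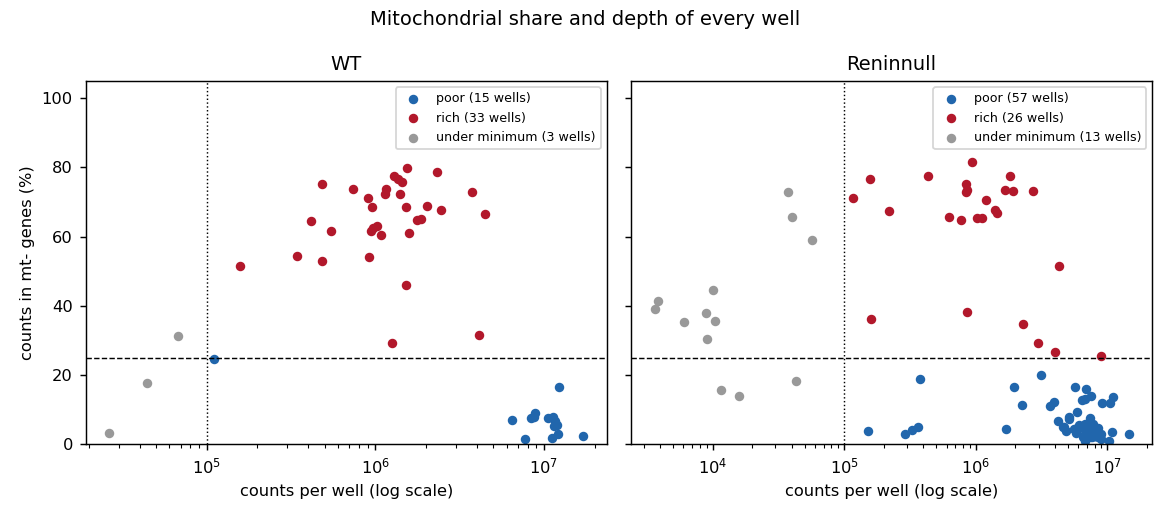
Share of counts in mt- genes (%) against counts per well (log scale) for every well, WT on the left and Reninnull on the right, with the 25% limit dashed and the minimum of 100000 counts dotted. Poor wells are blue, rich wells red and wells under the minimum grey. All but 1 of the 15 poor WT wells lie to the right of every rich WT well, while the Reninnull classes overlap in depth.

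Some wells could not count as separate cells. Across genes, 4 pairs of Reninnull wells correlated at 0.972 to 0.986, while the next pair reached 0.805. In 3 of these pairs a YFP1 well matched a YFP2 well and all 6 wells were poor. In the fourth, both wells were in YFP2, and the pair straddled the limit, with 12.0% mt- counts in one well and 25.6% in the other, which is the rich Reninnull well nearest the limit. With each pair counted once, 4698 genes were lower and 364 higher in rich Reninnull wells, beside 4618 and 374 with all wells.

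Genes that copy mitochondrial sequence took a large share of the counts outside mt- genes in rich wells. The genome carries nuclear copies of mitochondrial genes, and 13 genes of the table shared at least 10% of their 31-base words with a mitochondrial transcript. A block of 7 of them lies on the minus strand at chr1:24611535-24616197 (GRCm38), all annotated as unprocessed pseudogenes. Their sequences are shown because they decide what a count outside mt- genes means. Gm10925 (chr1:24613974-24614651) matches mt-Atp6 (chrM:7927-8607, plus strand) at all 678 bases compared, Gm28438 (chr1:24612775-24613119) differs from mt-Nd3 (chrM:9459-9806, plus strand) at 1 base of 345, T3C counted from the first base with the mitochondrial base first, and Gm29216 (chr1:24615706-24616197) matches mt-Co1 (chrM:5328-6872, plus strand) at all but 6 of 492 bases. Below are the first 60 bases of each copy and the same stretch of its mitochondrial gene, 5′ to 3′, from the GENCODE M21 transcripts, with capitals at the bases that differ.
Gm10925: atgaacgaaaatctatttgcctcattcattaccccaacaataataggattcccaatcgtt
mt-Atp6: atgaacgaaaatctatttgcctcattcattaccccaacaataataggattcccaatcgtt
Gm28438: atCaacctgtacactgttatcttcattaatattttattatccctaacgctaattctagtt
mt-Nd3: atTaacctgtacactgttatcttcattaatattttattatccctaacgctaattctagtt
Gm29216: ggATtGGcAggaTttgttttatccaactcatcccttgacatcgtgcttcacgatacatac
mt-Co1: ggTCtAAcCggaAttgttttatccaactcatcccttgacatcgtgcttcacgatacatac
All mismatches of these pairs fall within the stretches shown. Reads from the remaining bases cannot be assigned to one of the genes by sequence, so the level of a copy is uncertain.

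The 13 copies held a median of 46.8% of the non-mt counts of a rich WT well, from 6.26% to 70.8%, against 1.31% in poor wells, from 0.129% to 9.97%. In Reninnull wells they held 51.0% (6.26% to 88.6%) against 0.857% (0.140% to 5.04%). In neither genotype did the copies' median in rich wells fall within the range of the poor wells. Gm10925 alone went from a median of 3823 to 153314 CPM, the counts of a gene per 1000000 non-mt counts of the well, in WT and from 2947 to 189053 CPM in Reninnull wells. Gm29216 went from 5278 to 157805 CPM and from 3631 to 152787 CPM, and Gm28437, identical to mt-Co3 at 783 bases, from 826 to 63628 CPM and from 537 to 58237 CPM. For every 100 mt- counts, a well held a median of 16.2 copy counts in poor and 21.9 in rich WT wells, and 17.3 and 20.0 in Reninnull wells. With the copies added to the mt- counts, the summed share of the median rich well was 81.2% in WT and 83.6% in Reninnull. Because the copies fill the denominator, they lower the CPM of each other gene in rich wells, and values with the copies left out of both the genes and the denominator are given for the lists and for many genes beside the main ones and called copy-free.

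**Figure D2:**
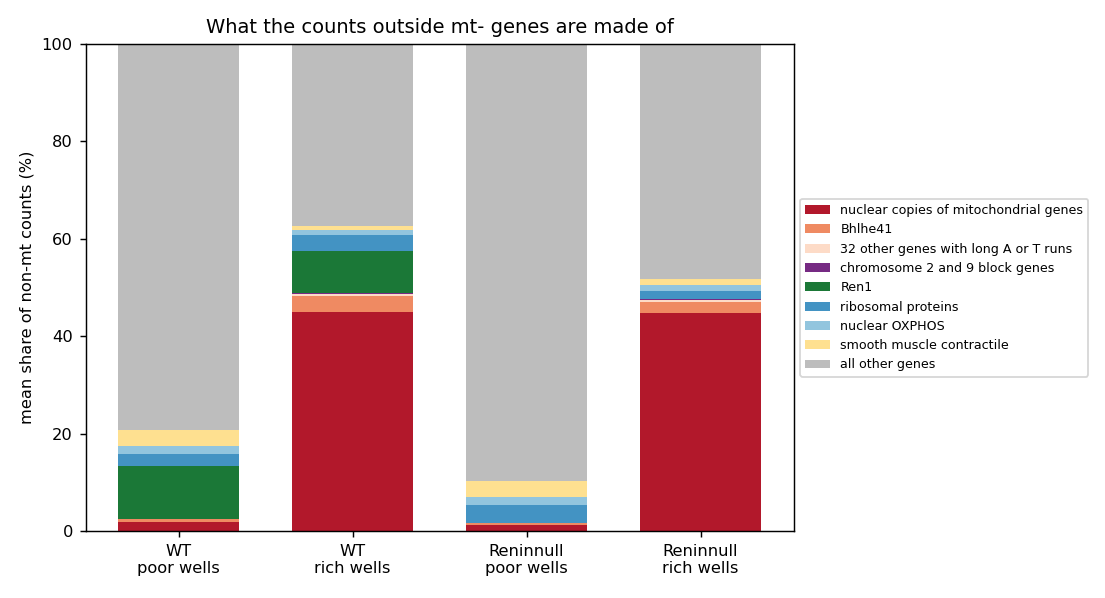
Mean share of non-mt counts (%) taken by the gene groups named in the key, for poor and rich wells of each genotype, as stacked bars that sum to 100. The copies take 45.1% and 44.8% of the rich bars and 1.86% and 1.38% of the poor bars.

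Within the mt- counts, mt-Co3 was the gene whose median share moved most in percentage points. As a ratio, mt-Atp6 moved more in Reninnull wells, from 1.28% to 2.54%, beside 1.33% to 1.23% in WT. mt-Co3 held a median of 36.6% of mt- counts in poor and 23.7% in rich WT wells, and 34.4% and 22.7% in Reninnull wells. mt-Cytb was higher by medians, at 21.8% against 24.5% and 18.1% against 23.7%. mt-Co1 held 13.0% against 14.6% and 15.7% against 19.8%. The ranges of the classes overlapped for all of these. Since Gm28437 and mt-Co3 share their sequence, their split within a well is uncertain. The same holds for Gm10925 and mt-Atp6, and for Gm29216 and the part of mt-Co1 that it matches. The shifts of mt-Co3, mt-Atp6 and mt-Co1 may therefore not be changes in the mitochondrial transcripts.

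By the ratio of means, most nuclear genes compared were lower in rich wells of each genotype. Genes were compared where the mean of both class means reached 10 CPM and at least 20% of the wells had a count. A gene was called lower or higher when its mean CPM differed at least 2-fold and still did without the highest well of each class, and kept when it stayed within 2-fold both ways. Of 5203 genes in WT, 3231 (62.1%) were lower, 397 (7.63%) higher, 198 (3.81%) kept and 1377 undecided, with a median log2 ratio of rich over poor wells of -3.95. Of 6979 genes in Reninnull wells, 4618 (66.2%) were lower, 374 (5.36%) higher, 599 (8.58%) kept and 1388 undecided, with a median of -2.21. By the difference of mean log2(CPM + 1), fewer were lower, 2408 of the 5203 genes in WT and 1695 of the 6979 in Reninnull wells, and the medians were -0.91 and -0.46. On this scale most genes were not lower in either genotype. Of the genes lower by the ratio of means, 65.1% in WT and 31.7% in Reninnull wells stayed lower. Copy-free, the medians of the ratios were -2.99 and -1.49, with 2852 lower (52.6%), 635 higher (11.7%) and 268 kept (4.94%) of 5423 genes in WT and 3948 lower (54.2%), 697 higher (9.58%) and 984 kept (13.5%) of 7278 in Reninnull wells. The median also moved with the library, at -4.38 in YFP1, where 4463 of 6025 genes were lower (74.1%), and -1.69 in YFP2, where 3719 of 6906 were (53.9%). With a limit of 50% in place of 25% it was -4.06 in WT and -3.68 in Reninnull wells. All 6 rich Reninnull wells between 25% and 50% were in YFP2, which had 8 rich wells over 50%, while all 12 rich YFP1 wells were over 50%. Library and mt- share thus go together among rich Reninnull wells, and they were not told apart in any value given by library.

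With calls by the ratio of means, the genotypes shared lower calls little beyond the background and higher calls more. Among 4225 genes compared in both, 2021 were lower in both, which is 72.6% of the WT lower genes, where 67.3% of all these genes were lower in Reninnull wells, and 71.04% of the Reninnull lower genes, where the WT background was 65.8%. By contrast 85 genes were higher in both, 29.3% of the 290 WT higher genes beside a background of 4.88%, and 41.3% of the 206 Reninnull higher genes beside 6.86%. Kept in both were 36 genes, 20.6% of the WT kept genes beside 9.35%, and 9.11% of the Reninnull kept genes beside 4.14%. Opposite calls were given to 71 genes lower in WT and higher in Reninnull wells and to 92 genes with the reverse. Across these genes, the log2 ratios of the genotypes correlated at r = 0.25, a description over genes that share the wells of each genotype.

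Contractile genes of mural cells were mostly lower in rich wells, in WT more often than all genes and in Reninnull wells about as often once the copies were left out. Acta2, smooth muscle actin, had a lowest, median and highest level of 287, 5016 and 18948 CPM in poor WT wells and of 6.45, 165 and 20762 CPM in rich ones, and of 2.27, 3562 and 27849 CPM in poor and 17.0, 389 and 7315 CPM in rich Reninnull wells. Its log2 ratio of means was -1.78 in WT and -2.02 in Reninnull wells. The classes overlapped in both genotypes, and 1 rich WT well was above every poor WT well. Copy-free, the WT ratio of Acta2 was -0.93 and undecided. Tagln, transgelin, fell from a median of 5035 to 100 CPM in WT (log2 ratio -3.91) and from 5817 to 326 CPM in Reninnull wells (-2.11). Myh11, the smooth muscle myosin heavy chain, went from 2219 to 101 CPM (-3.35) and from 1251 to 246 CPM (-1.72). Of 22 contractile genes compared, 19 were lower in WT and 17 in Reninnull wells, none was higher in either, and the list's median log2 ratio was -3.43 and -1.71, beside -3.95 and -2.21 for all genes compared, of which 62.1% and 66.2% were lower. Copy-free, 18 of 22 were lower in WT, beside 52.6% of all genes, and 12 of 22 in Reninnull wells, beside 54.2%. By library, 19 of 22 were lower in YFP1 (median -3.79) and 13 of 22 in YFP2, with 5 kept (-1.19). The shares over all genes were 74.1% and 53.9%.

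Renin cell genes split. In WT, Ren1 was kept: its level ran from 740 to a median of 61657 and a highest of 339358 CPM in poor wells, and from 1742 to 43828 and 523994 CPM in rich ones, with a log2 ratio of -0.31 (copy-free 0.40). Rich and poor wells overlapped over almost the whole range. A rough size was sought for Ren1 counts passed between wells. WT wells were told apart by pairs of index sequences, and 2266 other genes that had at least 1000 counts in 1 WT well and 80% of their WT counts there left a mean of 0.155% and a median of 0.0389% of those counts in each well that shares an index. At the mean rate, wells that share an index would give a rich WT well a median of 40.3% of its Ren1 counts, and more than all of them in 12 of 33 wells. At the median rate the share would be 10.1%, and at the mean rate it would be 4.29% in poor wells. A well cannot receive more than all of its counts, yet the mean rate gave up to 469% in a rich well, so it is no bound. Counts of a gene made in several wells were taken as passed on, and no rate for wells that share no index is given. Where the Ren1 counts of rich wells came from was not tested. Akr1b7, an aldo-keto reductase that marks renin cells, fell in the median well from 3489 to 493 CPM in WT, where the ratio of means of -0.85 was undecided, and from 1536 to 101.7 CPM in Reninnull wells, where it was called lower at -1.43. Summed counts gave Akr1b7 0.22 in Reninnull wells, and the libraries gave -5.00 in YFP1 and -0.60 in YFP2. Rgs5, a regulator of G protein signalling of mural cells, went from a median of 13656 to 761 CPM in WT (-1.01, copy-free -0.30 and undecided) and from 16003 to 1915 CPM in Reninnull wells (-2.02). YFP itself was sparse: the median well held 0.993 CPM of EYFP in poor and 3.97 in rich WT wells, and 4.05 and 31.0 CPM in Reninnull wells. Its ratio of means went the other way, at -0.83 and undecided in WT and -3.38 and lower in Reninnull wells, where the difference of mean log values was 0.73. Of the 27 renin cell genes, 20 could be compared in WT, 14 of them lower and 1, Ren1, kept, and 22 in Reninnull wells, 17 lower and 4 kept, beside 62.1% and 66.2% of all genes lower. In YFP1 16 of 19 were lower and 3 higher (median -4.19), and in YFP2 10 of 22 were lower and 7 kept (-1.43). All genes were lower in 74.1% in YFP1 and 53.9% in YFP2. Copy-free, 10 of 20 were lower and 3 kept in WT, beside 52.6% of all genes, and 13 of 22 lower, 3 higher and 3 kept in Reninnull wells, beside 54.2%.

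**Figure D3:**
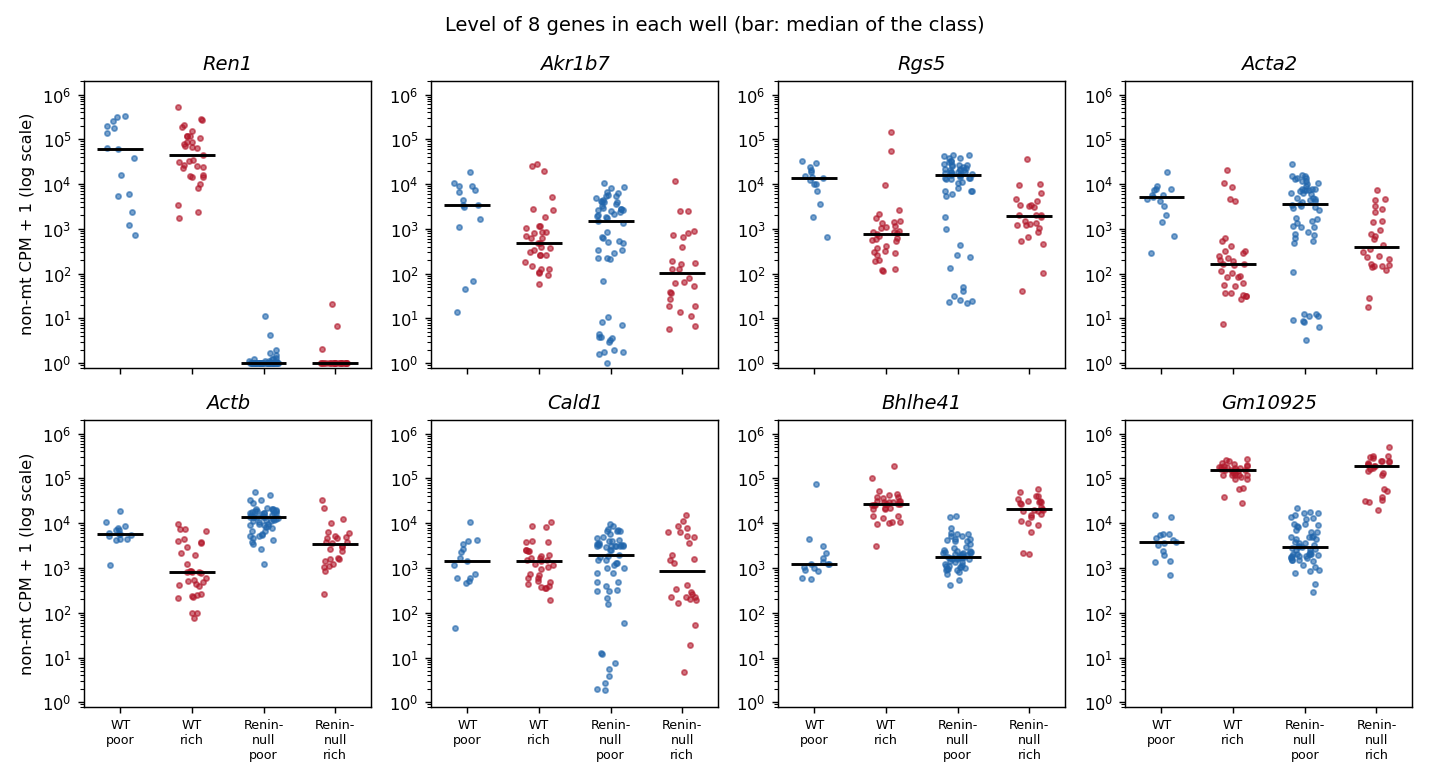
Level of 8 genes in each well, as non-mt CPM + 1 on a log scale, in poor (blue) and rich (red) wells of WT and Reninnull, with the median of each class as a bar. Acta2, Rgs5 and Actb are lower and Bhlhe41 and Gm10925 higher in the median rich well of both genotypes. The ranges of the classes overlap for every gene shown, except Gm10925 in WT.

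Other lists are given beside the 62.1% of all genes in WT and the 66.2% in Reninnull wells that were lower, and several were close to it. Actb, cytoplasmic actin, had a median of 5838 CPM in poor and 794 CPM in rich WT wells and of 13509 and 3362 CPM in Reninnull wells, with log2 ratios of -1.78 and -1.40, which came to -0.85 and -0.60, within the kept range, when the copies were left out. Fos, an immediate early gene that rises during tissue dissociation, went from a median of 3781 to 157 CPM (-2.29) and from 4407 to 378 CPM (-2.43). Among 23 dissociation and immediate early genes compared, 21 were lower in WT and 17 in Reninnull wells, with medians of -4.12 and -1.74. Copy-free, 21 of 23 were lower in WT (-3.01), beside 52.6% of all genes, and 9 of 23 lower and 8 kept in Reninnull wells (-0.79), beside 54.2%. Genes of the endoplasmic reticulum, where secreted proteins enter the secretory path, were lower in 24 of 26 in WT and 20 of 27 in Reninnull wells (medians -4.21 and -2.60). Abundant cytosolic transcripts were lower in 20 of 32 and 24 of 33 (-1.90 and -1.89), splicing and nuclear speckle genes in 16 of 25 in each genotype (-1.67 and -1.65), counts near the shares over all genes, stress and apoptosis genes in 9 of 13 and 12 of 15 (-2.55 and -2.12) and matrix and fibroblast genes in 7 of 8 and 9 of 13 (-3.50 and -2.004). Copy-free, endoplasmic reticulum genes were lower in 22 of 26 and 18 of 27 (-3.28 and -1.99) and abundant cytosolic transcripts in 18 of 32 and 20 of 33 (-1.07 and -1.31). Splicing genes were then lower in 14 of 25 and 12 of 25 (-1.10 and -0.83), stress genes in 8 of 13 and 10 of 15 (-2.10 and -1.71) and matrix genes in 6 of 8 and 7 of 13 (-2.49 and -1.46). The Reninnull values of these lists also moved with the library. In YFP1 the medians were -2.85 for immediate early, -4.95 for endoplasmic reticulum, -4.39 for abundant cytosolic, -3.36 for splicing, -4.52 for stress and -4.14 for matrix genes. In YFP2 they were -1.98, -1.93, -1.36, -0.96, -2.63 and -1.55 in the same order. Of 12 nuclear retained long noncoding RNAs listed, Snhg11 alone was in the table analysed here, with a ratio of -1.08, undecided, in WT and of 0.30, kept, in Reninnull wells. Copy-free, both calls changed, to -0.16, kept, and 1.34, higher.

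Nuclear genes for mitochondrial proteins were lower in most WT cases, while the Reninnull values mixed libraries that parted. The rich wells of these libraries also differed in mt- share, with 6 wells between 25% and 50% in YFP2 and 0 in YFP1. Library and mt- share were not told apart. Of 80 nuclear subunits of the respiratory chain and ATP synthase, 78 were compared in WT, where 55 were lower, 2 higher and 4 kept (median -2.32), and 79 in Reninnull wells, where 37 were lower, 1 higher and 9 kept (median -0.94). All genes were lower in 62.1% and 66.2%. Copy-free, 46 of 78 were lower in WT, beside 52.6% of all genes, and 33 of 79 in Reninnull wells, beside 54.2%, with medians of -1.52 and -0.68. By complex, the medians in WT and Reninnull wells were -2.87 and -1.14 for complex I, -4.92 and -2.75 for complex II, -4.63 and -0.68 for complex III, -1.98 and -0.53 for complex IV and -1.26 and -1.07 for complex V. With summed counts, the Reninnull medians turned to 0.19 for complex I and 0.088 for complex V. Copy-free, complex IV had 2 of 12 genes lower and 6 kept in Reninnull wells, with a median of -0.15. The copy-free medians of complexes I, II, III and V were -2.16, -3.99, -3.83 and -0.88 in WT and -0.84, -1.97, -0.48 and -0.81 in Reninnull wells. By library, 76 of 79 subunits were lower in YFP1 and 2 kept (median -5.51), where 74.1% of all genes were lower. In YFP2, 26 were lower, 3 higher and 26 kept (median -0.22), beside 53.9% of all genes lower. Cox4i1, a subunit of complex IV, had ratios of -5.84 in YFP1 and 0.45 in YFP2. Genes of import and chaperones were lower in 12 of 17 and 13 of 20 (-4.04 and -1.60), and those that maintain and express mitochondrial DNA in 4 of 8 and 4 of 13 (-4.61 and -0.86). Copy-free, import genes were lower in 12 of 18 and 10 of 20 (-2.88 and -1.08) and mitochondrial DNA genes in 4 of 8 and 3 of 13 (-3.74 and -0.68). By library, import genes had medians of -4.87 in YFP1 and -1.04 in YFP2 and mitochondrial DNA genes of -5.13 and -0.81. The respiratory lists other than complexes II and III in WT, and complex II in Reninnull wells, had a median above that of all genes compared. Higd1a, a protein of the mitochondrial inner membrane, fell from a median of 158 to 3.64 CPM (-5.20) and from 256 to 4.69 CPM (-2.84).

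Ribosomal protein genes were lower less often than all genes in WT by the ratio of means, but not by the medians of single genes. In Reninnull wells their counts parted by library, as did those of all genes, and library and mt- share were not told apart. The summed ribosomal level in WT was as high in rich as in poor wells, at a median of 27068 against 25940 CPM. Its ranges were 801 to 113231 and 9103 to 41618 CPM. The list's median log2 ratio was -0.28, with 34 of 78 genes lower and 7 higher, beside 62.1% of all genes lower. Copy-free, the median turned to 0.54, with 23 genes lower and 13 higher. In single genes the median well told otherwise: Rps6 went from a median of 377 to 8.86 CPM, and Rps16 from 141 CPM to 0, with a count in 11 of 33 rich WT wells. Of 57 ribosomal genes with a wide and high level in poor wells, 54 had copy-free medians at least 2-fold lower in both genotypes. Over all 286 genes picked in this way, 219 did. Picking genes by their level in poor wells favours lower values. When each well was thinned to 10000 copy-free counts, a poor WT well held a median of 50 of the 79 genes and a rich one 18, with ranges of 18 to 74 and 5 to 46. The most abundant ribosomal gene took a median of 7.43% of the list's counts in poor and 48.1% in rich WT wells, and it was a different gene from well to well, with 26 different genes in 33 rich wells. In Reninnull wells the summed level went from a median of 33157 to 5217 CPM, with 54 of 78 genes lower and none higher, beside 66.2% of all genes lower, and the list's median of -1.30 lay above the -2.21 of all genes. Copy-free, the summed level went from 33324 to 12513 CPM, with 39 of 78 genes lower, beside 54.2%, and 14 kept (median -1.01). In YFP1 74 of 78 genes were lower (median -5.56), and in YFP2 30 were lower and 28 kept (-0.63). All genes parted by library too, with 74.1% lower in YFP1 (median -4.38) and 53.9% in YFP2 (-1.69). Over both libraries, thinned wells held 51 and 25 of the genes. Before thinning, the top gene took 7.09% and 19.4% of the list's counts in poor and rich Reninnull wells. The same narrowing was seen for the respiratory genes, of which thinned wells held 35 against 10 in WT and 32 against 14.5 in Reninnull wells. Of 23 contractile genes, thinned wells held 16 against 10 in WT but 15 against 14.5 in Reninnull wells. Over all genes, a well thinned to 20000 non-mt counts held a median of 1467 genes in poor and 827 in rich WT wells, and 1669 and 1019.5 in Reninnull wells, and thinned to 10000 copy-free counts 1245 and 767, and 1351 and 1131.5.

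**Figure D4:**
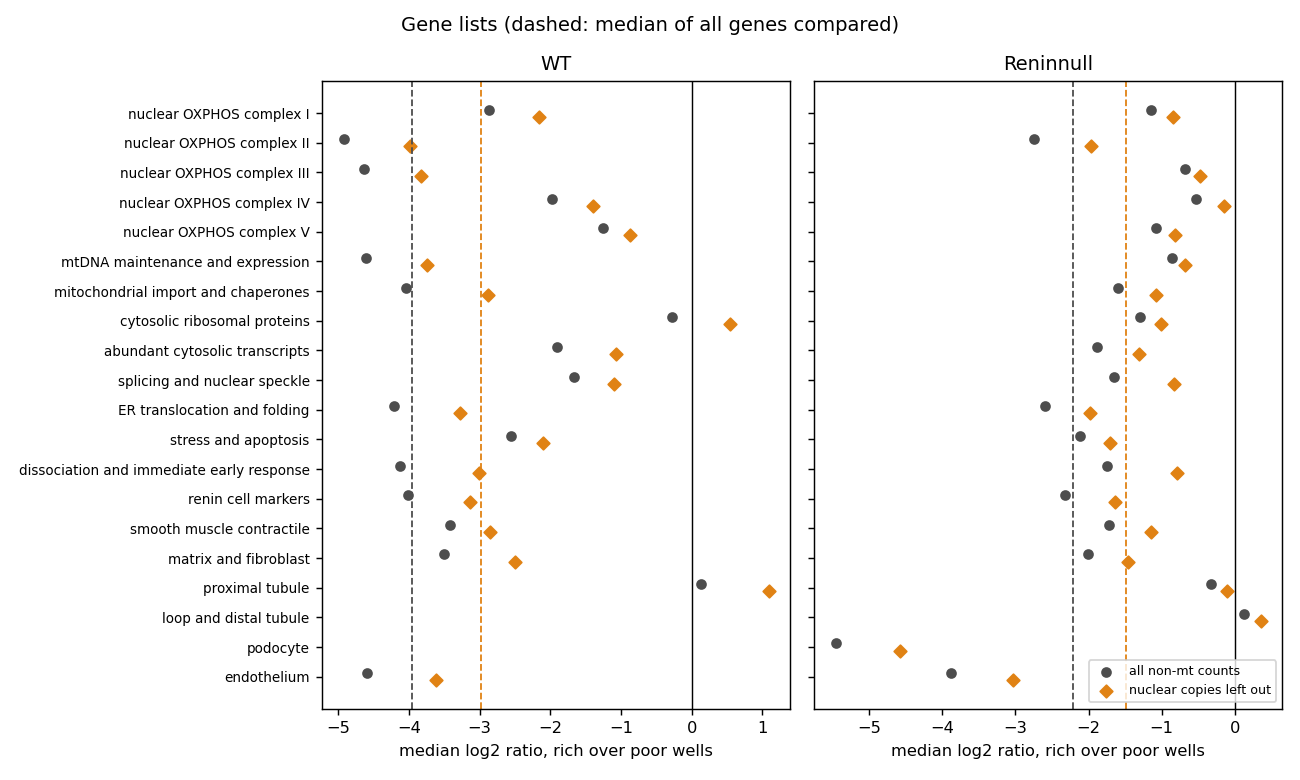
Median log2 ratio of rich over poor wells for each gene list with at least 3 genes compared, in WT (left) and Reninnull wells (right), from all non-mt counts (circles) and copy-free (diamonds), with the median of all genes compared as dashed lines. Ribosomal proteins lie near 0 in WT and at -1.30 in Reninnull wells from all non-mt counts.

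Reninnull wells of like depth were also compared, a choice made after the values were seen. Between 100000 and 500000 copy-free counts there were 5 poor wells, with a median of 295146, and 11 rich wells, with a median of 220035. Thinned to 10000 counts, the poor wells held 48 to 76 ribosomal protein genes (median 61) and the rich wells 12 to 54 (median 16), with overlapping ranges. Of 80 respiratory genes the poor wells held 30 to 63 (median 46) and the rich wells 3 to 54 (median 8). Actb had a copy-free median of 17892 CPM in the poor and 7489 CPM in the rich wells of this depth, with overlapping ranges. Acta2 had 840 and 455 CPM and Rgs5 16846 and 3834 CPM, whereas the median of Akr1b7 went the other way, with 71.2 CPM in the poor and 131 CPM in the rich wells. The highest Akr1b7 level was in a poor well, with ranges of 2.90 to 5387 CPM in the poor and 6.28 to 250 CPM in the rich wells. Proximal tubule genes reached 76777 CPM in one of the 5 poor and 54836 CPM in one of the 11 rich wells, and podocyte genes had a median of 14.2 CPM in the poor and 1031 CPM in the rich wells. The part of other cell types in this comparison was not tested. The 6 rich Reninnull wells between 25% and 50% mt-, all of them in YFP2, held a median of 53 ribosomal genes when thinned and 3881 CPM of Acta2, close to the 51 genes and 3562 CPM of poor wells, whereas the 20 wells over 50% held 21.5 genes and 278 CPM. In WT, the 3 wells between 25% and 50% held 14 genes and 83.9 CPM, and the 30 wells over 50% held 18.5 genes and 165 CPM.

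Bhlhe41, a transcriptional repressor of the circadian clock, was the most abundant gene outside the copies to be higher in both genotypes. Its lowest, median and highest level was 562, 1218 and 73444 CPM in poor and 3027, 26971 and 190444 CPM in rich WT wells, a log2 ratio of 2.38. In Reninnull wells it was 425, 1796 and 14147 CPM in poor and 2046, 20464 and 57279 CPM in rich wells, a ratio of 3.08. Every rich well was above the median poor well, and 1 poor WT well, the shallowest, was above the median rich well. The level followed depth: within rich wells its rank correlation with copy-free counts was -0.84 over 33 WT wells and -0.78 over 26 Reninnull wells, values that share the total used for scaling. In counts, a well held a median of 10687 in poor and 9476 in rich WT wells and 10393 and 6387.5 in poor and rich Reninnull wells, although the median copy-free depth of these classes was 9661692, 200331, 6238371 and 140205. The 3 WT wells under the minimum of 100000 counts, of which only 1 was over 25% mt-, held 110024 to 670883 CPM of Bhlhe41, and with them the WT ratio turned to -0.63.

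**Figure D5:**
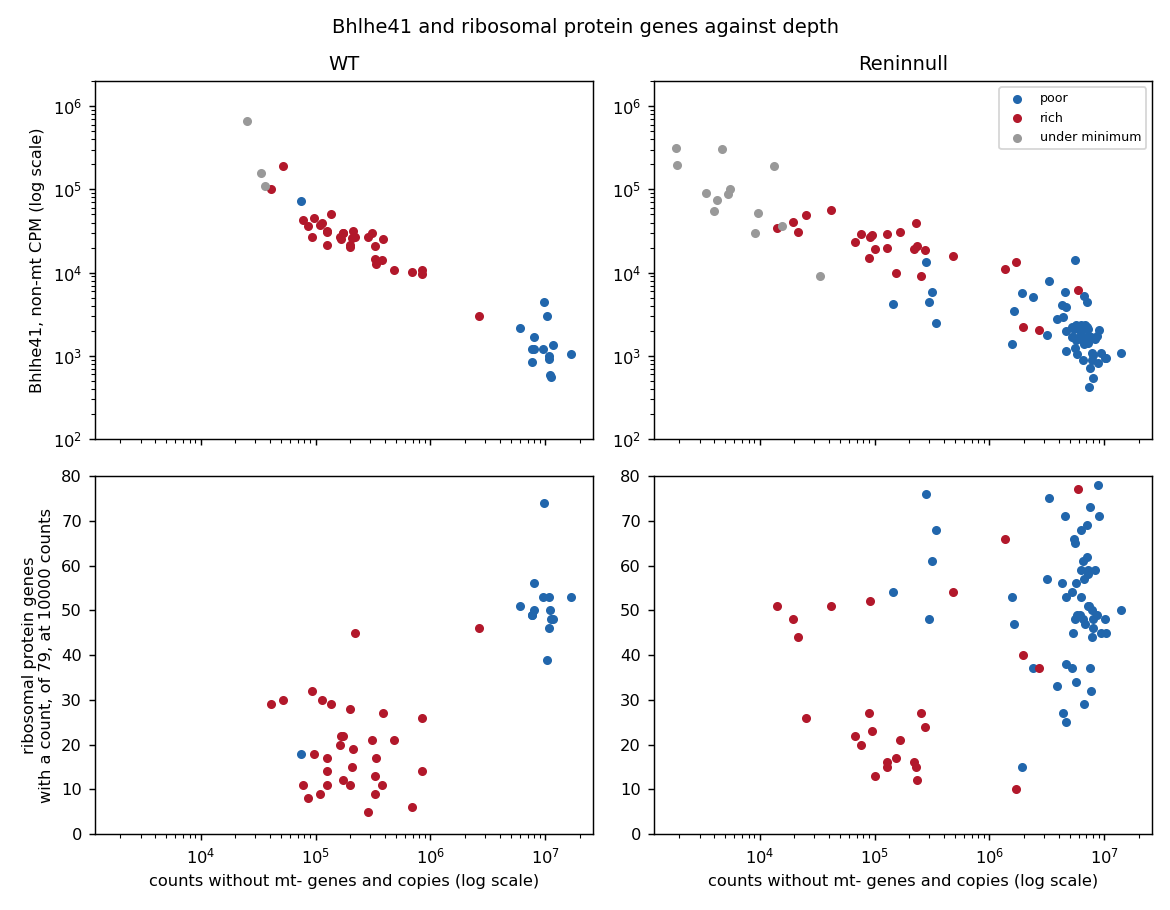
Bhlhe41 in non-mt CPM (top, log scale) and the number of 79 ribosomal protein genes with a count in a well thinned to 10000 counts (bottom), against copy-free counts (log scale), in WT (left) and Reninnull wells (right). Bhlhe41 falls as depth rises across poor (blue), rich (red) and shallower (grey) wells, while most rich Reninnull wells around 100000 to 500000 copy-free counts hold fewer ribosomal genes than the 5 poor wells there.

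Some genes higher in both genotypes carry a sequence feature that the classes did not use. Copy-free, 4429 genes were compared in both genotypes. Of these 56.4% were lower, 10.7% higher and 5.49% kept in WT, and 55.1%, 8.42% and 15.0% in Reninnull wells. Lower in both were 1541 genes and kept in both 52. The 143 genes higher in both were 30.2% of the WT and 38.3% of the Reninnull higher genes. In 36 of the 141 matched to GENCODE M21 (25.5%) an annotated transcript carries an unbroken run of at least 20 A or 20 T, against 12.8% of the genes compared in both, 11.3% of the genes lower in both and 3.59% of all matched genes of the table. Within a single genotype the share was closer to that of all genes compared. It was 14.2% of higher and 15.8% of kept genes in WT, beside 11.3% of all. In Reninnull wells it was 12.7% and 12.9%, beside 10.7%. The run reaches 39 bases in Bhlhe41, 40 in Bmt2, 42 in Vmn1r13, 47 in Olfr620 and 43 in Pecam1. Vmn1r13 and Olfr620 encode vomeronasal and olfactory receptors. Vmn1r13 went from a median of 7.08 to 231 CPM in WT and from 4.90 to 166 CPM in Reninnull wells, Olfr620 from 4.26 to 117 and from 5.11 to 80.1 CPM, and Bmt2 from 6.45 to 461 and from 1.81 to 85.7 CPM. With no well minimum, the WT ratios turned to -1.29 for Vmn1r13, -1.02 for Olfr620 and -0.77 for Bmt2. Among the wells left out for depth, 32 long-run genes besides Bhlhe41 summed to a median of 12881 CPM in 3 WT wells and 6923 CPM in 13 Reninnull wells. They were picked because they were higher in both genotypes and detected in 50% or more of rich wells. Their levels of 2253 and 1583 CPM in rich and 343 and 278 CPM in poor wells restate that choice. Of the wells left out, 1 of the 3 WT and 10 of the 13 Reninnull wells were over 25% mt-, and the part of depth was not tested.

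Pecam1, the endothelial adhesion molecule CD31, was in this group, with a median of 1.24 CPM in poor and 28.5 CPM in rich WT wells (log2 ratio 3.16) and 1.32 and 20.0 CPM in Reninnull wells (1.77), where summed counts turned the ratio to -0.30. Other endothelial markers did not follow it. Cdh5, VE-cadherin, had no count in any WT well or any rich Reninnull well, Kdr had a count in 2 of 33 rich WT and 3 of 26 rich Reninnull wells, and Emcn had a count in 5 rich wells of each genotype, at most 10.4 CPM. Of 11 endothelial genes, 3 were compared in WT, 1 lower and 1 higher, and 5 in Reninnull wells, 4 lower and 1 higher, and the higher gene was Pecam1 in each. The share of all genes lower was 62.1% and 66.2%.

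A further group lies in clusters. Of 12 predicted genes at the start of chromosome 9 (chr9:3000922-3038316, GRCm38), in a block on chromosome 2 (chr2:98662237-98667301) and Gm21738 on chromosome 14, 8 were higher in both genotypes. Over all 4225 genes compared in both, 85 were. The group was picked after its values were seen. Gm10715, Gm10720 and Gm17535 were compared in neither genotype, and Gm11168 in Reninnull wells alone. Gm10800 went from a median of 18.8 to 511 CPM in WT (log2 ratio 2.14) and from 49.4 to 790 CPM in Reninnull wells (3.24). Gm10718 went from 1.15 to 68.8 CPM (3.77) and from 3.82 to 89.4 CPM (3.70). Luc7l3, a splicing factor, went from 5.16 to 295 CPM (4.14) and from 0.357 to 63.5 CPM (3.48). Lars2, the mitochondrial leucyl-tRNA synthetase, had a ratio of 2.77 in WT and 1.22 in Reninnull wells, where YFP1 alone gave -0.38, YFP2 1.83 and a limit of 50% -0.33, and its median Reninnull well went from 318 to 283 CPM.

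Among the genes compared in both genotypes, 36 were kept in both. The 5 of highest level kept in both were Cald1, D10Wsu102e, Cdc45, Gpx3 and Ncor1. Cald1, caldesmon of the contractile apparatus, had a median of 1438 CPM in poor and 1443 CPM in rich WT wells (log2 ratio -0.10) and of 1991 and 862 CPM in Reninnull wells (0.24). Cdc45, a factor of DNA replication, had a ratio of -0.30 in WT and 0.08 in Reninnull wells. Its median fell from 393 to 48.2 CPM in WT and went from 350 to 316 CPM in Reninnull wells. Ncor1, a nuclear receptor corepressor, had ratios of -0.14 and 0.36, and D10Wsu102e of -0.47 and 0.50. Gpx3, a glutathione peroxidase secreted by the proximal tubule, had ratios of 0.14 and 0.43, but YFP1 gave -7.82 and YFP2 1.03, and the median well held at most 8.07 CPM. When the copies were left out, Cdc45 alone of the 5 was kept in both genotypes.

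At the lower end, the steepest ratios came from genes with a low level in the median poor well. The 8 lowest in both were Mtf2, Eif2b1, Mospd1, Ap2b1, Polr2g, Fer, Rnps1 and Qk, with log2 ratios from -5.67 to -7.63 in WT and from -5.69 to -9.45 in Reninnull wells. In poor wells, their median level was at most 3.83 CPM in WT and 8.26 CPM in Reninnull. Qk, the RNA-binding protein Quaking, was the most widely counted of them in Reninnull wells, in 53 of 57 poor and 17 of 26 rich wells. Of the 8 highest in both, 5 were copies of mitochondrial genes: Gm28661, Gm20594, Gm13341, Gm10925 and Gm28438. Gm20594 and Gm10925 had a count in every well of both classes and genotypes. The rest of the 8 were Klk14, a kallikrein-related peptidase with ratios of 7.36 and 6.67, H4f16, a histone H4 gene with 7.86 and 6.07, and the olfactory receptor gene Olfr1039 with 4.71 and 4.92. Klk14 had a count in 13 of 33 rich and 3 of 15 poor WT wells and in 19 of 26 rich and 20 of 57 poor Reninnull wells.

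Other genes were called in one genotype and were kept or called the opposite way in the other. Lowest in WT and kept or higher in Reninnull wells were 3110021N24Rik, Serpinh1, Dab2ip, Tars2 and Zmym4, and highest in WT were Ly6c1, Zfp235, Pak1ip1, Pex16 and Pdzk1. Serpinh1, the collagen chaperone, had ratios of -6.69 in WT and -0.03 in Reninnull wells, with counts in 3 of 33 rich WT wells and 13 of 26 rich Reninnull wells. Its Reninnull value mixed libraries, with -3.88 in YFP1, called lower as in WT, and 0.82 in YFP2. Ly6c1, a surface antigen, had 8135 counts in rich and 11 in poor WT wells, and its ratio went from 13.33 to 4.37 without the highest well of each class. Lowest in Reninnull and kept or higher in WT wells were Pex16, Pwwp2a, Asb3, Ttc39b and Ing5, and highest were Stxbp4, Zfp397, Hddc2, Nemf and Tbx2. Nemf, a factor of ribosome quality control, was the most widely counted gene of these groups in Reninnull wells, in 52 of 57 poor and 23 of 26 rich wells. Its ratio was 7.21 in YFP1, called higher, and -0.43 in YFP2, undecided. Tbx2, a T-box transcription factor, had ratios of -4.87 in WT and 5.77 in Reninnull wells, the latter 1.86 without the highest well of each class and with a count in 6 of 26 rich wells. Whether the genotypes differ in any of these genes was not tested.

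Markers of other kidney cells were low in the median well of each class. Proximal tubule genes summed to a median of 60.4 CPM in poor and 44.1 CPM in rich WT wells and 113 and 58.4 CPM in Reninnull wells, with single wells up to 76222 CPM in the poor and 49476 CPM in the rich Reninnull class, and Gpx3 was the most abundant of them. In Reninnull wells 17 of 22 tubule genes were compared, 5 lower and 7 kept, with a median of -0.33, and in WT 3, with a median of 0.14. The libraries had opposite signs, with 10 of 14 genes lower in YFP1 (median -6.25) and 4 of 18 lower, 2 higher and 6 kept in YFP2 (0.24). All genes were lower in 74.1% in YFP1 and 53.9% in YFP2. Copy-free, the summed medians turned, from 61.01 to 98.3 CPM in WT and from 114 to 238 CPM in Reninnull wells, with 6 of 18 genes lower and 8 kept in Reninnull wells (-0.11) and 1 of 3 lower and 2 higher in WT (1.10). Podocyte genes had medians of 65.5 and 4.76 CPM in WT and of 229 and 231 CPM in Reninnull wells, led by Synpo, with 2 of 2 compared lower in WT and 7 of 9 in Reninnull wells, beside 62.1% and 66.2% of all genes. Copy-free, their summed medians went from 66.4 to 7.71 CPM in WT and from 232 to 357 CPM in Reninnull wells, where 7 of 9 genes were lower and 2 higher. In YFP1 3 of 5 were lower and 1 higher (median -2.49), and in YFP2 8 of 9 were lower (-5.54). Loop and distal tubule genes had medians of 2.50 and 11.2 CPM in WT and 35.2 and 14.6 CPM in Reninnull wells. There the mean went the other way, from 270 to 2155 CPM, with single wells up to 4068 CPM in the poor and 50203 CPM in the rich class, and Umod, uromodulin of the thick ascending limb, was the most abundant gene. Endothelial genes had medians of 8.41 and 33.8 CPM and of 7.42 and 24.4 CPM. Copy-free, loop and distal tubule genes had medians of 2.54 and 23.5 CPM and of 35.4 and 27.4 CPM, and endothelial genes of 8.42 and 65.9 CPM and of 7.52 and 50.0 CPM. Collecting duct, immune and erythroid genes had a median of 0 CPM in every class except the poor Reninnull wells, where collecting duct genes stood at 0.124 and immune genes at 0.359 CPM. No collecting duct or immune gene reached the level for comparison, and of 13 immune genes 10 had no count in any WT well. Of 6 erythroid genes 1 was compared in WT, where it was higher, and 2 in Reninnull wells, where 1 was kept. Of the loop and distal tubule genes 1 was compared in WT, with no call, and 4 in Reninnull wells, 1 lower and 1 kept. How far other cell types shape the differences between rich and poor wells was not tested.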

How the data were processed

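Single YFP-positive kidney cells were profiled with SMART-Seq v4 on the Fluidigm C1 System. After trimming with Trimmomatic, the authors ran Salmon against the Ensembl mouse genome and took transcript estimates to gene level by tximport with lengthScaledTPM. The values the authors deposited are these estimated counts for 35438 genes, adjusted for transcript length and not for depth. The submitters' processing notes name FastQC 0.11.5, Trimmomatic 0.39, Salmon 0.11.2 and GRCm38.p6. There are no molecular identifiers, so PCR copies cannot be told apart.

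Counts were rounded to whole numbers. Wells with at least 100000 counts were split at 25% of counts in 13 mt- genes, and each well was scaled to counts per 1000000 non-mt counts. The level of a class was the mean over its wells, and a class at 0 was set to 3 counts over the class. No doublet caller was run. Nuclear copies are genes with at least 10% of the 31-base words of a transcript in a mitochondrial transcript of GENCODE M21 (GRCm38). Runs, lengths and positions were matched by symbol for 96.7% of genes. Transcript length and GC content differed little by call: the median length of lower, kept and higher genes was 3599.5, 4073 and 3673 bases in WT and 3631, 4169 and 4254 bases in Reninnull wells, and the median GC content 48.3%, 45.6% and 46.6%, and 48.2%, 47.2% and 47.2%.

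The members and lists were chosen with earlier results of these data known. Genes named are the 8 lowest and 8 highest called in both genotypes, the 5 lowest and 5 highest called in one and opposite or kept in the other, the 5 most abundant kept in both, members of the lists described, and Ren1, Akr1b7, Acta2, Tagln, Myh11, EYFP, Gm28437, Gm29216 and Gm10925. Malat1 was not analysed here. Long-run genes, wells of like depth, list values by library and other genes named were chosen after their values were seen. The calling rule was also run on simulated wells with 200 genes changed 4-fold. In the WT and in the Reninnull comparison, 100 of 100 raised and 100 of 100 lowered genes were recovered. Among unchanged genes, 0.27% of 5830 in WT and 0.10% of 7782 in Reninnull were called. The simulation compared 6030 genes for WT and 7982 for Reninnull, beside 5203 and 6979 in the measured wells. Its values hold for the simulated design only and give no error rate for the calls in the measured wells. Alternatives were another way to combine wells, depth, limits, filters, denominators, each Reninnull library and near-identical wells. Python 3.11.15, numpy 2.4.6, pandas 2.3.3 and matplotlib 3.10.9 were used.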

Additional observations from a re-analysis of the deposited data

How the results depend on the processing

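No paired analysis was possible because the labels give the wells no shared replicate numbers and rich and poor wells are different cells. Main counts were 3231 lower and 397 higher genes in WT, 4618 and 374 in Reninnull wells, and 2021 and 85 in both. Over the alternatives, 58 counts stayed within 1.5 times the main value and 44 did not, as follows. Summed counts gave 912 higher genes in WT, 1227 in Reninnull wells and 207 in both. The difference of mean log2(CPM + 1) gave 1695 lower genes in Reninnull wells and 1035 in both. Wells thinned to 20000 non-mt counts gave 894 lower and 110 higher genes in WT, 1445 and 114 in Reninnull wells and 525 and 37 in both. Thinning left only 1497 genes to compare in WT and 2199 in Reninnull wells, beside 5203 and 6979 in the main comparison. These lower counts are therefore drawn from fewer genes. A mitochondrial limit of 15% gave 611 higher genes in WT. Ratios centred on their median gave 824 lower and 1286 higher in WT, 1587 and 1743 in Reninnull wells and 181 and 431 in both. A filter of 50 CPM and 50% of wells, which leaves fewer genes, gave 1348 and 110, 1681 and 135, and 745 and 34, and a filter of 1 CPM with no share of wells 5056 and 1179, 7440 and 1040, and 3330 and 196. The filter of 50 CPM compared 1991 genes in WT and 2525 in Reninnull wells, and that of 1 CPM 10067 and 12970. With nuclear copies left out, higher genes numbered 635 in WT, 697 in Reninnull wells and 143 in both, and without the rule on the highest well 721, 799 and 134. Chosen after seeing the data, leaving out copies and long-run genes gave 644 higher genes in WT and 713 in Reninnull wells, and leaving out copies with wells thinned to 10000 counts gave 641 lower and 148 higher in WT, 927 and 171 in Reninnull wells and 304 and 40 in both. The copy-free thinned wells left 1300 genes to compare in WT and 1822 in Reninnull wells. With near-identical wells counted once, the Reninnull and shared counts stayed within 1.5 times, and the median Reninnull log2 ratio was -2.61.

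Some values changed sign. With summed counts, Reninnull medians were 0.19 for complex I and 0.088 for complex V, and log2 ratios -0.30 for Pecam1, 0.22 for Akr1b7 and 0.56 for Rps16. EYFP came to 0.73 in Reninnull wells by mean log values. Lars2 in Reninnull wells was -0.33 at a limit of 50% and -0.38 in YFP1 alone. With no well minimum, WT ratios were -0.63 for Bhlhe41, -0.77 for Bmt2, -1.29 for Vmn1r13 and -1.02 for Olfr620. Centring shifts all ratios by 3.95 in WT and 2.21 in Reninnull wells, so genes that fell less than the median gene turn positive. In WT these included complex I (1.08), IV (1.97) and V (2.69), abundant cytosolic (2.05), splicing (2.28), stress (1.40), contractile (0.53) and matrix genes (0.45), Acta2 (2.17), Tagln (0.038), Myh11 (0.60), Rgs5 (2.95), Actb (2.17) and Fos (1.66). In Reninnull wells these included complex I (1.07) and V (1.14), import (0.62), ribosomal (0.91), abundant cytosolic (0.33), splicing (0.56), stress (0.090), immediate early (0.47), contractile (0.50) and matrix genes (0.21), Akr1b7 (0.78), Acta2 (0.19), Tagln (0.11), Myh11 (0.49), Rgs5 (0.20), Actb (0.82), Rps16 (1) and Rps6 (0.26). Values nearer to 0 also turned, among them those of ribosomal genes (3.67) and Ren1 (3.64) in WT and of complexes III (1.53) and IV (1.68), mitochondrial DNA (1.35) and proximal tubule genes (1.88) in Reninnull wells. For the sign changes other than by centring, the cause was not tested. Depth limits the rich wells, whose median non-mt count was 363660 in WT and 366430 in Reninnull, against 10204287 and 6321263 in poor wells.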
